A study of Mus musculus with 8 samples.

Results

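The genes of glycolysis and of the hypoxia response were examined in bone marrow cells of C57BL/6 mice that had been transformed by the fusion oncogene MLL-AF9 and sorted for high c-KIT, the receptor of stem cell factor. They were a fixed set of 32 genes chosen by name, from glucose uptake to lactate export together with oxygen sensing, and all 32 were among the 24421 gene symbols counted. RNA-seq libraries came from 2 Ikzf2 KO samples, from Ikzf2Δ/Δ mice, and from 2 Ikzf2 WT samples, from Ikzf2f/f mice, so that the cells called WT carry the floxed alleles. Both groups carry MLL-AF9, and cells of both had been frozen and thawed before sorting. Ikzf2 encodes the Ikaros family factor Helios, which binds DNA through zinc fingers. The sources used here give neither the Cre driver, the age of the mice, the vector of the fusion gene nor the number of mice behind a library. The spread that enters each p-value is thus that between these libraries and can be technical in part.

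Glycolysis splits glucose into pyruvate in the cytosol and yields ATP without oxygen, and lactate dehydrogenase then turns pyruvate into lactate, which leaves the cell with protons. Most steps are served by a family of isozymes from separate genes that differ in tissue and in regulation. The transcription factor HIF-1 switches on glucose transporters, most glycolytic enzymes and angiogenic factors when oxygen is scarce. Prolyl hydroxylases of the EGLN family mark its alpha subunit for destruction when oxygen is present. Blood stem cells lie in a marrow of low oxygen and are known for their reliance on glycolysis.

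Total gene counts came to 16006081 and 18017545 in KO replicates 1 and 2 and to 19286090 and 18711837 in WT replicates 1 and 2, and values below are given in that order within each group. Levels are CPM, a gene's count scaled to the library's gene counts after TMM normalisation, and a count of 3, taken as the floor of detection, equalled 0.150 to 0.186 CPM. The targeted gene Ikzf2 stood at 10.9 and 26.5 CPM in KO and at 283 and 271 CPM in WT (log2 fold change -3.89, SE 0.48, n = 2 per group). DESeq2 called this difference (adjusted p = 1.13e-13), while edgeR (adjusted p = 0.332) and voom in limma (adjusted p = 0.397) did not call even the targeted gene. KO replicate 1 stood apart from the other libraries in its sex-linked genes, with the X-inactivation RNA Xist at 833 CPM, against 0.35 CPM in the other KO library and 0.60 and 0.48 CPM in the WT pair. The Y-linked gene Ddx3y was at 0.062 CPM in KO replicate 1, at 70.1 CPM in KO replicate 2 and at 110 and 102 CPM in WT. The labels give no sex, and the part of sex in the results below was not tested. Of the labelled cell type, Kit was at 236 and 376 CPM in KO and at 216 and 330 CPM in WT, and Hoxa9, a gene that MLL fusions keep on, was at 312 and 280 CPM in KO and 318 and 334 CPM in WT. Of the 7 markers listed for these cells, 2 had a log2 fold change above 0 and 5 below, with a median of -0.23. In 3 of them both KO libraries lay below both WT libraries, against 19.1% of all genes tested, and DESeq2 called 0. Most granulocyte markers were higher in KO. The summed level of 12 markers was 21801 and 29984 CPM in KO and 1423 and 6079 CPM in WT. Chil3 gave 8449 and 10375 CPM of this in KO and 322 and 1766 CPM in WT. All 12 had a log2 fold change above 0, against 6243 of all 12623 genes tested. DESeq2 called 5 of them higher, against 1.26% of all genes. In 9 both KO libraries lay above both WT libraries, against 18.1% of all genes tested. Mmp8, Mmp9 and Retnlg overlapped, with Mmp9 at 26.0 and 278 CPM in KO and 25.6 and 255 CPM in WT. The 12 monocyte and macrophage markers summed to 2202 and 1927 CPM in KO and 2312 and 1338 CPM in WT, most of it Ly6c2 (1258 and 1207 CPM in KO, 1933 and 856 CPM in WT). Of the 8 tested, 5 lay above 0 and 3 below, with a median log2 fold change of 1.15, and DESeq2 called 3 higher, which were F13a1 (9.64-fold, adjusted p = 1.55e-12), Csf1r (2.63-fold, adjusted p = 0.0133) and Mpeg1 (2.78-fold, adjusted p = 0.00969). C1qa, C1qb, C1qc and Ms4a7 did not pass the filter. The part of these differences in the results below was not tested. In bulk RNA, fewer cells of a type and less RNA per cell cannot be told apart. The other marker lists summed to less. Erythroid markers summed to 3.77 and 52.7 CPM in KO and to 2.40 and 2.28 CPM in WT, with Car2 giving 50.4 CPM in KO replicate 2, and the hemoglobin genes listed were at 0 in every library. B cell markers summed to 35.9 and 25.8 CPM in KO and 24.2 and 18.1 CPM in WT. T and NK cell markers summed to 96.0 and 136 CPM in KO and 104 and 69.7 CPM in WT, most of it Nkg7. Megakaryocyte markers summed to 12.2 and 30.4 CPM in KO and 33.1 and 119 CPM in WT. Itga2b gave 2.85 and 21.3 CPM of this in KO and 28.6 and 112 CPM in WT. Of the 3 megakaryocyte markers tested, 2 lay above 0 and Itga2b lay below. Stromal markers summed to 78.2 and 172 CPM in KO and 351 and 302 CPM in WT. Pecam1 gave 71.8 and 152 CPM of this in KO and 236 and 257 CPM in WT. Pdgfrb gave 6.12 and 17.5 CPM in KO and 114 and 44.2 CPM in WT. DESeq2 called 1 of the 7 stromal markers lower, which was Pdgfrb, and only Pdgfrb and Pecam1 passed the filter.

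As a set the members leaned lower in KO. They took 0.759% and 0.906% of gene counts in KO and 1.08% and 1.02% in WT. Of the 30 members that passed the filter on low counts, 21 had a log2 fold change below 0, against 50.5% of all 12623 genes tested, and the median was -0.20, against -0.0043 over all genes. In 13 members both KO libraries lay below both WT libraries, which held for 19.1% of all genes, and in 4 members both lay above, against 18.1% of all genes. With 2 libraries a group, an exact permutation test of a single gene cannot go below a two-sided p of 0.33. edgeR's quasi-likelihood test with Benjamini-Hochberg adjustment called 0 of the 30 members at an adjusted p of 0.05 and 0% of all genes, and 9 members had an unadjusted p under 0.05, against 7.67% of all genes. voom in limma also called 0 members, with 9 at an unadjusted p under 0.05, against 7.41% of all genes. DESeq2 called 3 of the 32 members, against 2.11% of all 16651 genes with a count. Both totals include genes of low count, such as Eno1, that DESeq2 gave no adjusted p and so could not call. Aldoc and Egln3 were called lower, against 0.859% of all genes in that direction, and Ldhb higher, against 1.26%. "Fell" and "rose" are used below of these DESeq2 calls only.

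**Figure D1:**
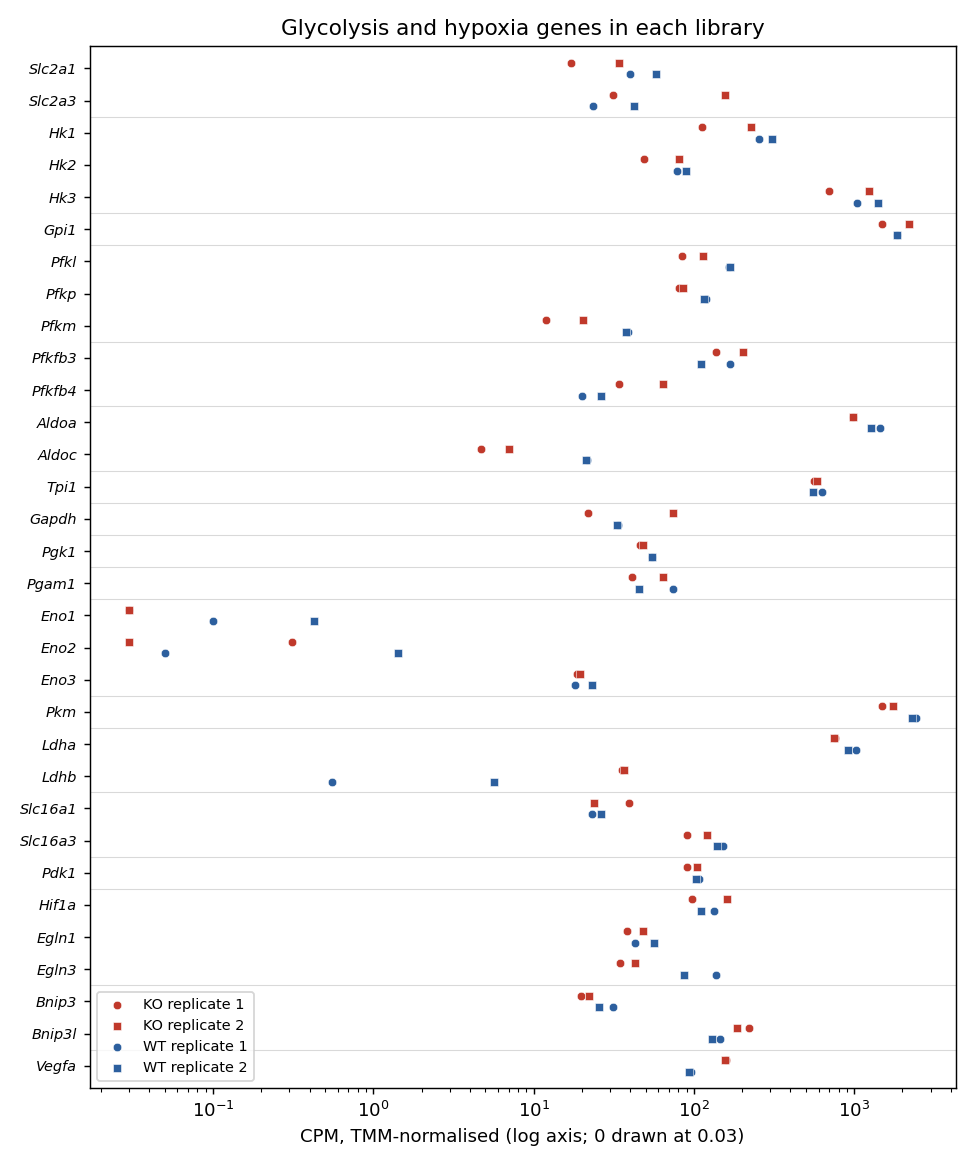
CPM of each member in the 4 libraries on a log axis, KO replicates above WT replicates for each gene and genes in pathway order, with a level of 0 drawn at 0.03. Ldhb lies far to the right in both KO libraries, Aldoc and Egln3 lie to the left in both, and the KO libraries of Slc2a3 and Gapdh lie far apart from each other.

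The lean rested more on KO replicate 1, the library that stood apart in sex-linked genes, than on KO replicate 2. Leaving out KO replicate 2 gave a median log2 fold change of -0.41 over the members, and leaving out KO replicate 1 gave -0.052. Leaving out WT replicates 1 and 2 gave -0.27 and -0.16. Within replicate number 1, KO was below WT in 23 of 30 members, with a median log2 CPM difference of -0.50, and within replicate number 2 it was below in 18 of 30, with a median of -0.18. KO lay below WT in 50.9% and 50.5% of all genes within these numbers. Between the KO libraries themselves, 5 of 30 members were lower in replicate 2 than in replicate 1, against 50.7% of all genes, and the median difference was 0.37. Between the WT libraries, 18 of 30 were lower in replicate 2, against 50.2% of all genes. In 16 members KO was lower within both numbers, and in 5 it was higher within both. The share of all genes that kept a direction within both numbers was not computed, so these counts have no background.

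**Figure D2:**
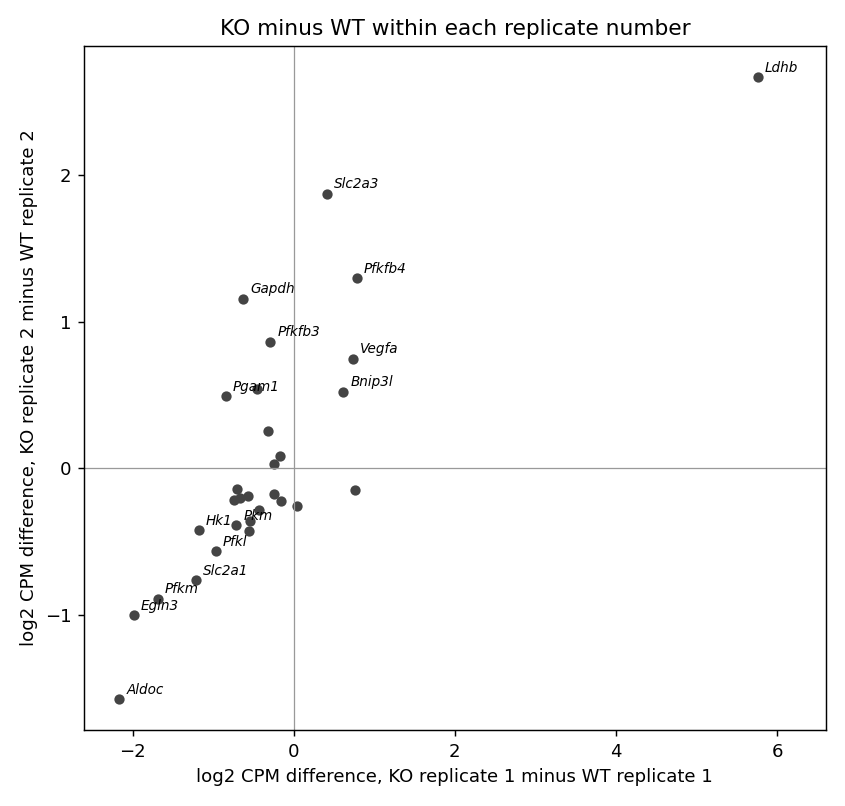
Log2 CPM difference of KO minus WT for the 30 members, within replicate number 1 on the horizontal axis and within replicate number 2 on the vertical axis, each point a gene. Aldoc, Egln3 and Pfkm lie lowest on both axes, Ldhb lies highest on both, and Gapdh, Pgam1 and Pfkfb3 are below 0 within number 1 and above 0 within number 2.

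The promoters of these genes are known for the hypoxia response element, whose core HIF-1 binds, and windows of 250 bases before each start were read from RefSeq (GRCm38.p6) for 30 of the 32 members, with 1 to 4 starts a gene. The letters ACGTG, on either strand, lay in 17 of the 30 members (56.7%), against 18.5% of all genes with a window and 25.1% of those tested here. A gene was counted if any of its windows held the letters. Members had 44 windows for 30 genes, against 32851 windows for all 27025 genes with a window, and the shares are not corrected for this. With the other core GCGTG added, the share was 90% of members and 60.8% of tested genes, and with ACGTG inside CACGTG left out, the E-box that MYC binds, it was 50% and 17.2%. Of the 13 members that lay lower in KO without overlap, 9 held ACGTG, as did 7 of 12 overlapping members and 1 of 3 members with a window that lay higher. Neither Aldoc nor Ldhb held it. A match describes letters only and is neither a site nor a cause. The sequences below are shown because they set the members that lay lower beside Vegfa, which lay higher. For Vegfa and Pkm the match lies before an inner start, and the window furthest upstream in each gene held no ACGTG. Capitals mark the motif, read along the gene's strand, so that CACGT is ACGTG on the opposite strand. The motifs begin 36 bases before a start for Slc2a1 (chr4:119108697-119108725, plus strand), 150 for Pgk1 (chrX:106186938-106186966, plus strand), 75 for Pkm (chr9:59657140-59657168, plus strand), 34 for Ldha (chr7:46845758-46845786, plus strand), 229 for Egln3 (chr12:54204087-54204115, minus strand) and 211 for Vegfa (chr17:46025358-46025386, minus strand).
Slc2a1: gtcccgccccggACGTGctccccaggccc
Pgk1: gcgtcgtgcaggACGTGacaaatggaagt
Pkm: ctccgatccggtCACGTccgcgccgcagc
Ldha: cgtgggttcccgCACGTccgctgggctcc
Egln3: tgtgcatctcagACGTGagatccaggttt
Vegfa: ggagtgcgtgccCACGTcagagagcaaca

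Glucose enters the cell through facilitative transporters, and the 2 that are members lay on opposite sides of 0. Of other tested Slc2a genes, Slc2a6 (log2 fold change -1.57, SE 0.56) and Slc2a8 (-0.13, SE 0.23) lay lower in KO without overlap. Slc2a9 (0.38, SE 0.26) lay higher without overlap, and Slc2a5 overlapped. Slc2a1, the basal transporter GLUT1, was at 17.1 and 34.2 CPM in KO and at 39.8 and 58.1 CPM in WT (log2 fold change -0.93, SE 0.41, edgeR adjusted p = 0.688). The size of the Slc2a1 difference depended on the KO library: its log2 fold change was -1.52 without KO replicate 2, where DESeq2 called it lower (adjusted p = 0.0497), and -0.52 without KO replicate 1, where it was not called (adjusted p = 0.9998). Slc2a3, the high-affinity transporter GLUT3, was at 31.2 and 156 CPM in KO and at 23.4 and 42.4 CPM in WT (log2 fold change 1.51, SE 0.79). Both KO libraries lay below WT for Slc2a1, while the high Slc2a3 value came from KO replicate 2 and KO replicate 1 lay within the WT range. Without KO replicate 2 the log2 fold change of Slc2a3 was -0.075, and without KO replicate 1 it was 2.25, a value DESeq2 then called (adjusted p = 0.00118). Per 1000 reads of Slc2a3 there were 547 and 219 reads of Slc2a1 in KO and 1699 and 1370 in WT, so the balance of the pair differed in both KO libraries. Such a ratio is not corrected for gene length and is read across libraries only.

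Hexokinases trap glucose in the cell as glucose 6-phosphate, and the log2 fold changes of all 3 were below 0. Hk1, the isozyme found in most tissues, was at 112 and 229 CPM in KO and at 254 and 306 CPM in WT, with no overlap (log2 fold change -0.72, SE 0.38). Hk3, the isozyme known from myeloid cells, was at 700 and 1234 CPM in KO and at 1035 and 1408 CPM in WT, with the groups overlapping (log2 fold change -0.34, SE 0.35). The inducible isozyme Hk2 had -0.38 (SE 0.30), also with overlap. KO replicate 1 had the lowest value of each of the 3. Without KO replicate 1 the log2 fold change was -0.29 for Hk1 (DESeq2 adjusted p = 0.9998), -0.053 for Hk2 and 0.017 for Hk3. Without KO replicate 2 it was -1.32 for Hk1, which DESeq2 then called lower (adjusted p = 0.00337), -0.79 for Hk2 and -0.80 for Hk3. Gpi1, whose product converts glucose 6-phosphate to fructose 6-phosphate, was at 1493 and 2192 CPM in KO and at 1855 and 1841 CPM in WT, with the KO libraries on either side of WT.

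Phosphofructokinase commits the sugar to glycolysis, and for each of its 3 subunit genes both KO libraries lay below both WT libraries. The log2 fold changes were -1.25 for the muscle-type subunit Pfkm (SE 0.33, edgeR adjusted p = 0.456), -0.75 for the liver-type subunit Pfkl (SE 0.23, adjusted p = 0.517) and -0.49 for the platelet-type subunit Pfkp (SE 0.18, adjusted p = 0.608). Pfkm was at 12 and 20.3 CPM in KO and at 38.9 and 37.7 CPM in WT, a 2.37-fold lower level. Pfkl was at 84.3 and 114 CPM in KO and at 165 and 169 CPM in WT. The WT libraries were close together for each subunit and KO replicate 1 was the lowest. The unadjusted edgeR p was 0.0118 for Pfkm, 0.0199 for Pfkl and 0.0396 for Pfkp. DESeq2 gave adjusted p-values of 0.0734, 0.236 and 0.553 for these genes over all libraries. Without KO replicate 2 it called Pfkm (adjusted p = 0.00893) and Pfkl (adjusted p = 0.0485) lower, and without KO replicate 1 it called neither (0.543 and 0.855). The 3 log2 fold changes kept their sign with any library left out, with Pfkm between -1.67 and -0.91.

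The PFKFB enzymes make and remove fructose 2,6-bisphosphate, the strongest activator of phosphofructokinase, and the log2 fold changes of both members were above 0. Pfkfb4 was at 34.3 and 64.5 CPM in KO and at 19.96 and 26.2 CPM in WT, with no overlap (log2 fold change 1.10, SE 0.37, edgeR unadjusted p = 0.0291, adjusted p = 0.582). Pfkfb3, the form with the highest kinase activity, was at 138 and 202 CPM in KO and at 169 and 111 CPM in WT, with the groups overlapping. The value of Pfkfb4 was 0.57 without KO replicate 2 and 1.49 without KO replicate 1, and neither edgeR nor DESeq2 called it in any of these fits.

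**Figure D3:**
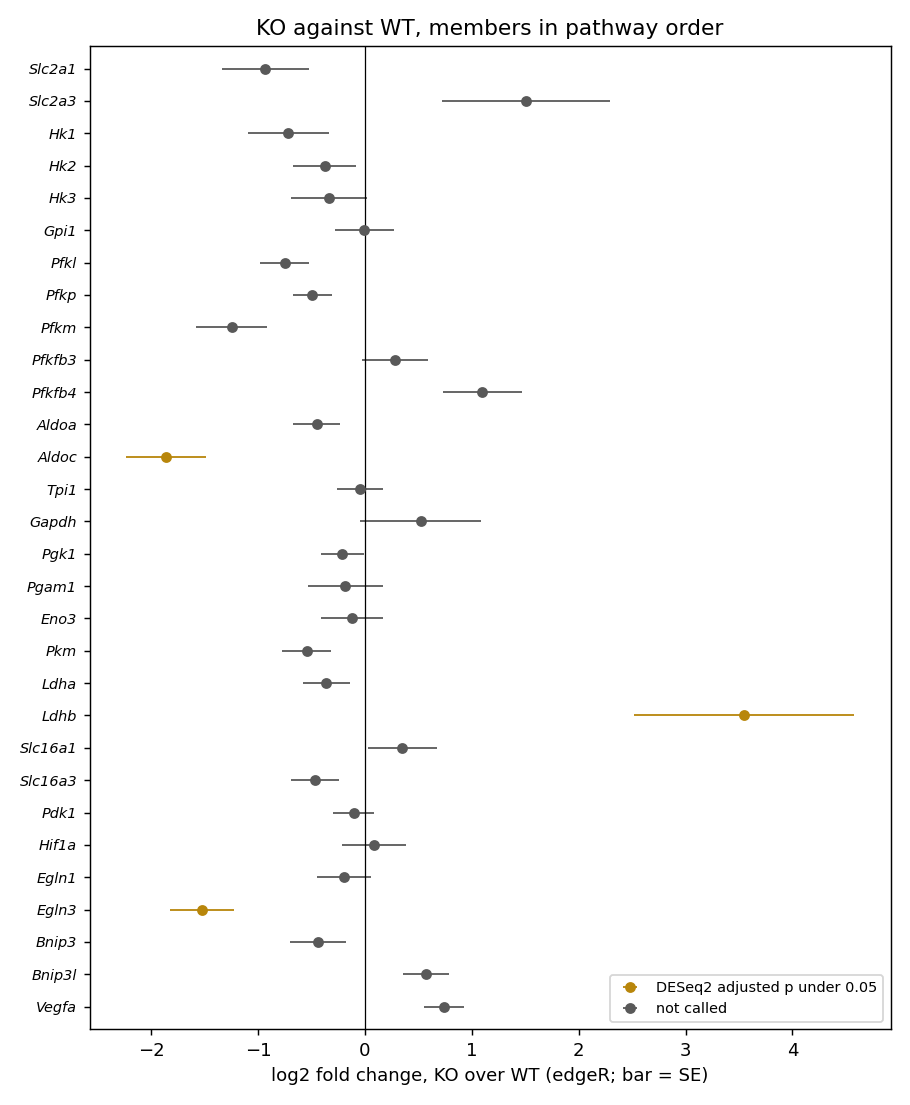
Log2 fold change of KO over WT by edgeR for the 30 tested members, in pathway order from glucose uptake at the top, with bars of 1 SE. The 3 phosphofructokinase genes lie left of 0 and both PFKFB genes right of it, and Aldoc, Ldhb and Egln3, called by DESeq2, lie furthest from 0 with Slc2a3.

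Aldolase cleaves the phosphorylated fructose, and Aldoc fell. Aldoc, the aldolase known from brain (chromosome 11, 78323073 to 78327781, GRCm38.p6), was at 4.70 and 7.04 CPM in KO and at 21.5 and 21.2 CPM in WT, from counts of 76 and 120 in KO and 430 and 400 in WT. Its log2 fold change was -1.86 (SE 0.37), a 3.63-fold lower level (DESeq2 adjusted p = 0.00155, edgeR adjusted p = 0.444). The WT libraries differed by less than 1 CPM, and the higher KO library stood well below them. DESeq2 lost the call without KO replicate 1 (adjusted p = 0.130), WT replicate 1 (0.297) and WT replicate 2 (0.167) and kept it without KO replicate 2 (0.00591), while edgeR's log2 fold change stayed between -2.18 and -1.60. Aldoa, the widespread aldolase, was at 990 and 987 CPM in KO and at 1441 and 1266 CPM in WT (log2 fold change -0.45, SE 0.22). Per 1000 reads of Aldoa there were 4.75 and 7.14 reads of Aldoc in KO and 14.9 and 16.8 in WT, so Aldoc was lower relative to its partner too.

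The steps in the lower part of the pathway are served by fewer genes here, and the groups overlapped for 3 of the 4 described next. Tpi1, triose phosphate isomerase, was at 561 and 584 CPM in KO and at 631 and 552 CPM in WT (log2 fold change -0.047, SE 0.22). Pgk1, phosphoglycerate kinase, was at 46.1 and 48.4 CPM in KO and at 54.7 and 54.7 CPM in WT (log2 fold change -0.21, SE 0.20), with no overlap. Pgk1 is on the X chromosome, where KO replicate 1 differed from the rest in Xist. Gapdh was at 21.8 and 74.4 CPM in KO and at 33.9 and 33.3 CPM in WT, and Pgam1, phosphoglycerate mutase, at 41.0 and 63.8 CPM in KO and 73.7 and 45.3 CPM in WT. The KO libraries of Gapdh stood on either side of WT, and those of Pgam1 lay within the WT range or below it. Without KO replicate 2 the log2 fold change of Gapdh, 0.52 over all libraries, was -0.62.

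Counts of 10 members are uncertain because the RefSeq gene table lists pseudogenes or retrotransposed copies under their names, 27 in all: Gapdh, Pgk1, Pgam1, Tpi1, Eno1, Aldoa, Gpi1, Ldha, Ldhb and Bnip3l. Reads that align to more than 1 place made up 33.1% and 26.0% of all reads and alignments tallied in KO and 32.1% and 31.7% in WT. KO replicate 2, with the lowest such share, was also the library with the highest Gapdh. The part of this in the result was not tested. Without these 10 members, the median log2 fold change was -0.38 over 21 members, 15 of them below 0. Enolase shows the limit most plainly. Eno1, the main enolase of blood cells, had 0 and 0 reads in KO and 2 and 8 in WT, and the copy Eno1b, whose older names include Eno1, was at 24.3 and 56.9 CPM in KO and at 43.1 and 55.1 CPM in WT. Eno2, the neuronal form, had 5 and 0 reads in KO and 1 and 27 in WT, and neither Eno1 nor Eno2 passed the filter. Eno3, the muscle form, was at 18.7 and 19.4 CPM in KO and 18.2 and 23.2 CPM in WT.

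Pyruvate kinase closes the pathway, and Pkm was at 1487 and 1739 CPM in KO and at 2435 and 2278 CPM in WT (log2 fold change -0.55, SE 0.23, edgeR adjusted p = 0.682). The groups did not overlap, and the log2 fold change ran from -0.66 to -0.44 with any library left out. The counts do not separate the PKM1 and PKM2 splice forms of this gene.

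The 2 lactate dehydrogenase members lay on opposite sides of 0, and Ldhb rose. Ldhb, the subunit of heart-type enzyme that favours pyruvate as its product (chromosome 6, 142490249 to 142507957), was at 35.6 and 36.4 CPM in KO and at 0.55 and 5.62 CPM in WT, from counts of 576 and 620 in KO and of 11 and 106 in WT. Its log2 fold change was 3.55 (SE 1.03), an 11.7-fold higher level (DESeq2 adjusted p = 0.00380, edgeR adjusted p = 0.505). The KO libraries agreed closely, and the WT libraries differed more from each other than in any other tested member, with a log2 CPM difference of 3.12. Leaving out WT replicate 1 gave a log2 fold change of 2.68 and leaving out WT replicate 2 gave 6.03, while leaving out KO replicates 1 and 2 gave 3.56 and 3.53. edgeR called Ldhb without WT replicate 1 (adjusted p = 0.0469) and without WT replicate 2 (0.000503), where the spread of the remaining WT library was taken from KO, and DESeq2 lost the call without KO replicate 1 (0.134) or KO replicate 2 (0.0792). Ldha, the subunit of muscle-type enzyme and a classical HIF-1 and MYC target, was at 763 and 746 CPM in KO and at 1030 and 910 CPM in WT, with no overlap (log2 fold change -0.36, SE 0.22, edgeR adjusted p = 0.804). Per 1000 reads of Ldha there were 46.7 and 48.8 reads of Ldhb in KO and 0.53 and 6.18 in WT.

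**Figure D4:**
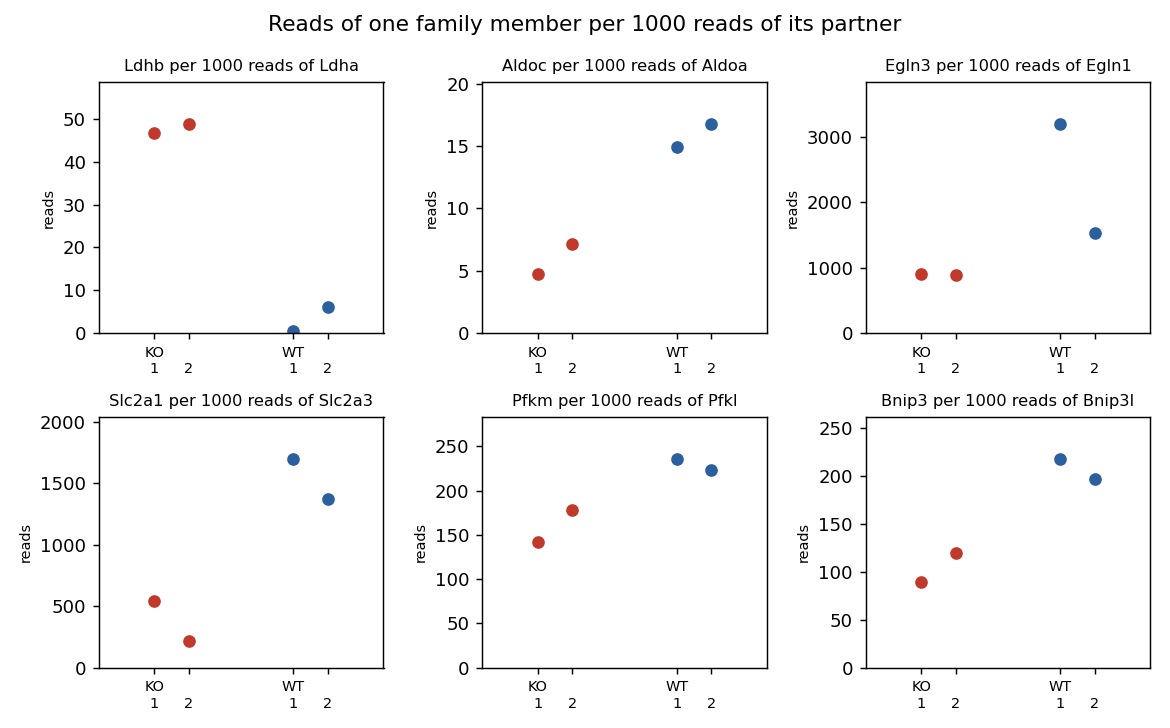
Reads of one family member per 1000 reads of its partner in each library, KO on the left and WT on the right, on linear axes that start at 0 and without correction for gene length. The 6 pairs were picked for display from 11 after their values were seen, and KO lies above WT for Ldhb and below WT for Aldoc, Egln3, Slc2a1, Pfkm and Bnip3.

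Over all 11 such pairs of family members, the ratio was lower in KO without overlap in 7, which adds Hk1 to Hk2 and Pfkfb3 to Pfkfb4 to the pairs plotted. It was higher without overlap in 3. Beside Ldhb these were Pfkp, with 961 and 749 reads per 1000 of Pfkl in KO and 723 and 679 in WT, and Slc16a1, with 432 and 197 reads per 1000 of Slc16a3 in KO and 152 and 188 in WT. Hk3 overlapped, with 14410 and 15243 reads per 1000 of Hk2 in KO and 13127 and 15752 in WT. Some pairs share a partner, and no such share was computed for pairs of other genes.

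Lactate leaves through monocarboxylate transporters. Slc16a3, the exporter MCT4, was at 90.6 and 121 CPM in KO and at 151 and 140 CPM in WT, with no overlap (log2 fold change -0.46, SE 0.23). Slc16a1, the transporter MCT1, was at 39.1 and 23.8 CPM in KO and at 23.1 and 26.3 CPM in WT, with overlap and a log2 fold change of 0.35 (SE 0.32). Pdk1, a kinase that shuts pyruvate dehydrogenase, was at 90.5 and 104 CPM in KO and at 107 and 103 CPM in WT (log2 fold change -0.11, SE 0.19).

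Among the genes of oxygen sensing, Egln3 fell while the groups overlapped for Egln1 and Hif1a. Egln3, the prolyl hydroxylase PHD3, itself strongly induced by HIF-1 (chromosome 12, 54178981 to 54203874), was at 34.6 and 43.0 CPM in KO and at 137 and 86.3 CPM in WT. Its log2 fold change was -1.53 (SE 0.30), a 2.88-fold lower level (DESeq2 adjusted p = 0.00353, edgeR adjusted p = 0.444). The 2 groups did not overlap, and the spread was wider in WT than in KO. DESeq2 lost the call without KO replicate 1 (adjusted p = 0.112) and WT replicate 1 (0.565) and kept it without KO replicate 2 (0.00893) and WT replicate 2 (0.00940), and edgeR's log2 fold change lay between -1.81 and -1.15, with a call without WT replicate 2 (adjusted p = 0.0285). Egln1, the main oxygen sensor PHD2, was at 38.4 and 48.1 CPM in KO and at 42.9 and 56.1 CPM in WT (log2 fold change -0.20, SE 0.25). Per 1000 reads of Egln1 there were 902 and 894 reads of Egln3 in KO and 3197 and 1537 in WT. Hif1a, which is controlled largely at the protein level, was at 97.1 and 161 CPM in KO and at 133 and 111 CPM in WT, with the KO libraries on either side of WT.

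The remaining HIF-1 targets did not share a direction. Vegfa, the main angiogenic growth factor, was at 160 and 156 CPM in KO and at 96.1 and 93.1 CPM in WT, with replicates closer together than the groups (log2 fold change 0.74, SE 0.18). Its unadjusted edgeR p was 0.00883, its edgeR adjusted p 0.444 and its DESeq2 adjusted p 0.0658. The log2 fold change of Vegfa ran from 0.73 to 0.77 with any library left out, the narrowest range of any tested member with an absolute value of at least 0.5. Bnip3l, the mitophagy receptor NIX, was at 222 and 186 CPM in KO and at 145 and 130 CPM in WT (log2 fold change 0.57, SE 0.21). Its relative Bnip3 was at 19.9 and 22.1 CPM in KO and at 31.5 and 25.5 CPM in WT (log2 fold change -0.44, SE 0.27). The ratio of the pair differed in both KO libraries, with 89.4 and 119 reads of Bnip3 per 1000 reads of Bnip3l in KO and 217 and 197 in WT.

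Further genes of glycolysis and of the hypoxia response are set beside all 12623 genes tested, of which 6243 lay above 0 and 6380 below. DESeq2 called 2.11% of all 16651 genes with a count, the share to set beside the calls in these lists. Of 18 tested further glycolysis genes, 12 lay above 0 and 6 below, with a median of 0.12. Galm, which interconverts the anomers of sugars such as galactose, rose by DESeq2 and was at 23.4 and 15.6 CPM in KO and at 5.80 and 6.79 CPM in WT (adjusted p = 0.0108). The 3 of this list with the highest mean CPM, not corrected for length, were the ADP-dependent glucokinase Adpgk (log2 fold change 0.98, SE 0.35), Pgm2 (-0.15, SE 0.28) and the gluconeogenic enzyme Fbp1 (1.19, SE 0.48). Of 13 tested genes of pyruvate entry into mitochondria, 6 lay above 0 and 7 below, with a median of -0.16 and 0 calls by either tool. Pdha1, Dld and Pdhb, parts of the pyruvate dehydrogenase complex, had the highest mean CPM of these, with log2 fold changes of 0.043 (SE 0.20), 0.11 (SE 0.25) and 0.050 (SE 0.21).

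Of 37 tested further hypoxia genes, 22 lay above 0 and 15 below, with a median of 0.12. Cited2, a HIF-1 target whose protein competes with HIF-1 for its coactivators, rose by DESeq2 and was at 439 and 442 CPM in KO and at 165 and 212 CPM in WT (adjusted p = 0.000882). Ndrg1, a stress response gene, rose by DESeq2 and was at 67.2 and 57.9 CPM in KO and at 23.6 and 34.0 CPM in WT (adjusted p = 0.0383). Ankrd37, a small HIF-1 target, fell by DESeq2 and was at 2.35 and 2.76 CPM in KO and at 8.40 and 8.12 CPM in WT (adjusted p = 0.0459). The 3 called genes did not overlap between the groups. Next to Cited2, those of highest mean CPM were Wsb1, with a log2 fold change of 0.40 (SE 0.23), and the transferrin receptor Tfrc, with 0.39 (SE 0.30).

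The pentose phosphate pathway branches from glucose 6-phosphate and makes NADPH and ribose. Of its 11 tested genes, 6 lay above 0 and 5 below, with a median of 0.088. Rpia, ribose 5-phosphate isomerase, rose by DESeq2 and was at 168 and 137 CPM in KO and at 83.6 and 75.3 CPM in WT (adjusted p = 0.0261). Transketolase Tkt was at 1605 and 1810 CPM in KO and 1385 and 1348 CPM in WT, and 6-phosphogluconate dehydrogenase Pgd at 1059 and 986 CPM in KO and 717 and 886 CPM in WT, both without overlap and called by neither tool. Taldo1 had a log2 fold change of -0.073 (SE 0.27). edgeR called 0 genes in any of these 4 lists.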

How the data were processed

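RNA-seq counts of 4 libraries were used, 2 from KO and 2 from WT cells, grouped by sample title. The authors deposited raw counts per gene symbol, 24421 in each file. Build mm10 and the tools MACS2, Picard, HTSeq, Bowtie2 2.2.5 and STAR 2.3.0 are named, without roles, per the submitters' processing notes. No source used here states the annotation, the filters on reads or whether strand was used, so a gene and its antisense partner cannot be told apart. The 5 closing rows tally reads not assigned to a gene, including those that align to more than 1 place. They held 72.4% and 69.3% of all counts in KO and 72.2% and 71.7% in WT and were left out. Replicates differed beyond counting noise (chi-square per degree of freedom 115 in KO, 84.6 in WT). The 4 ATAC-seq samples were not analysed here.

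KO was compared with WT in R 4.3.3 by edgeR 4.0.16 (filterByExpr, TMM, quasi-likelihood F-test with robust moderation, Benjamini-Hochberg adjustment over all 12623 tested genes, threshold 0.05). The SE was the log2 fold change's size over the square root of F. DESeq2 1.42.0 on 16651 genes and voom in limma 3.58.1 were alternatives. All were run on simulated counts as a check of the code. The dispersions of these were set and not estimated from the libraries, so power in these data was not tested. Leaving out a library leaves 1 in its group, which is then assumed to vary like the other group. Log2 CPM differences used a prior count of 2. Floors and intervals cover counting error only. The members, gene lists and tests were chosen with earlier results of these data known, so no test over the lists was run. Values in every library are given for members called by edgeR or DESeq2, for the member of highest mean CPM of each role and for members without overlap and an absolute log2 fold change of at least 0.5. Other members named with values were chosen after their values were seen. From the further lists, the called genes, the 3 of highest mean CPM and the tested Slc2a genes are named. The labels do not say that a replicate number marks a shared batch. Promoter windows and named copies came from RefSeq tables (GRCm38.p6, the assembly of mm10), in which all 32 members had coordinates.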

Additional observations from a re-analysis of the deposited data

How the results depend on the processing

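The count of called members was 0 by edgeR, voom, both other scalings, both other filters and the replicate block, against 3 by DESeq2, and it ran from 0 to 6 with a library left out, by edgeR or DESeq2. The 6 came from DESeq2 without KO replicate 2 and were Slc2a1, Hk1, Pfkl, Pfkm, Aldoc and Egln3, all lower. Over all genes, 352 were called by DESeq2, 4 with no filter, 11 with the replicate block and 0 to 390 with a library left out. The median member log2 fold change of -0.20 ran from -0.41 to -0.043 with a library left out and was -0.38 without the members that have a named copy, an alternative chosen after seeing the data, as was DESeq2 with a library left out. The promoter share of 56.7% was 90.0% with GCGTG added.

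Of 450 single-member values under 15 alternatives, 400 kept their direction and side of the threshold, 16 passed the threshold and 34 changed sign, in 12 members. Gpi1 changed sign by DESeq2 (0.0076), with RLE factors (0.0087) and with no filter (0.0077). With a library left out the log2 fold change ran from -0.31 to 0.26 for Gpi1, from -0.80 to 0.026 for Hk3, from -0.075 to 2.25 for Slc2a3, from -0.018 to 0.63 for Pfkfb3, from -0.13 to 0.062 for Tpi1, from -0.62 to 1.16 for Gapdh, from -0.54 to 0.22 for Pgam1, from -0.28 to 0.083 for Eno3, from -0.052 to 0.67 for Slc16a1, from -0.21 to 0.0052 for Pdk1, from -0.33 to 0.42 for Hif1a and from -0.37 to 0.025 for Egln1. The cause was not tested. The correlation over all tested genes of the difference between KO replicates with that between WT replicates was 0.19. The samples share only a number, and the block called 0 members. The planned share of each isozyme per kilobase was not run, since gene lengths were not used here. Counts of Eno1 near the floor limit what can be said of it. Eno2 had 5 and 0 reads in KO and 1 and 27 in WT, so most of its reads came from WT replicate 2.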
